A study of Saccharomyces cerevisiae with 4 samples.

Results

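The genes described here are the RPS genes of budding yeast (Saccharomyces cerevisiae), which encode the proteins of the small subunit of the cytosolic ribosome. Members were all genes whose standard name is RPS, a number and an optional A or B for the copies of a duplicated gene. RefSeq lists 56 such genes, of which 55 had a row in the table and 53 a value on all 4 arrays, out of 4788 genes with a value on all 4 arrays. RPS19A (YOL121C) and RPS30A (YLR287C-A) had a row with a value on 0 arrays, and RPS14A (YCR031C) was not analysed here.

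The arrays compared both parts of a split culture of an slt2 mutant. SLT2 encodes the last kinase of the cell wall integrity pathway, which responds to wall damage. Both parts grew in rich medium (YEPD) at 24 °C, and 1 part received zymolyase 100T, a preparation that digests wall glucan, at 5 units per ml for 3 h. RNA of 2 cultures was hybridised to 4 two-colour arrays, with treated RNA in Cy3 on arrays 1 and 3 and in Cy5 on arrays 2 and 4. The treated and the untreated part carried the same mutation, and no wild type group was part of the series, although the treated channel of array 3 is labelled wild type in 1 field. SLT2 had a value on 0 arrays, so the mutation could not be checked. No strain background or number of clones is stated.

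Each deposited value is a log ratio between both dyes of an array, read as log2 from its size, since the base is not stated. Arrays of opposite dye orientation correlated below 0 (r from -0.60 to -0.30), and their values were turned to run the same way. The numerator dye is not stated, so it is unknown which side is higher with zymolyase. The sides are named after genes at either end, HSP12, a small stress protein gene (2.63 ± 0.58 on the log2 scale, SD, n = 4 arrays), and TIP1, a cell wall mannoprotein gene (1.17 ± 0.45 to the other side). All sizes below are log2 ratios counted positive toward the TIP1 side. They compare transcripts within an array, so a smaller share of a transcript and a different amount of RNA per cell cannot be told apart.

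The small subunit reads the messenger RNA. Its body and platform hold the entry and exit of the mRNA channel and the decoding centre, and its head carries the beak and contacts the transfer RNAs. In yeast most of its protein genes occur as A and B copies that encode identical or nearly identical proteins, and their transcription, driven by Rap1, Fhl1 and Ifh1, is known to follow nutrient signals through TOR and protein kinase A. In many stresses these genes are known to move opposite to genes such as HSP12.

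The RPS genes lay together on the TIP1 side, opposite HSP12, by small amounts. The mean of the 4 arrays was on that side for 53 of 53 members, against 57.5% of all genes. The median size was 0.34, or 1.27-fold, while the median of all 4788 genes was 0.06. Mean sizes ran from 0.10 (RPS1B) to 0.60 (RPS21A), or from 1.07-fold to 1.52-fold, and 39 of 53 lay between 0.2 and 0.45. The spread of the means over members was narrow (SD 0.11), whereas that over all genes was 0.40. By mean size, 46 of 53 members fell in the 25% of genes furthest on the TIP1 side. The member furthest out, RPS21A, ranked 47th.

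No single member passed the test. In limma, 0 of 53 were called at an adjusted p under 0.05, against 0.209% of all genes called on the TIP1 side, and the lowest adjusted p was 0.194, for RPS21A. At an unadjusted p under 0.05 there were 9 members, RPS10B, RPS21A, RPS21B, RPS22A, RPS27B, RPS28B, RPS29B, RPS30B and RPS31, against 2.97% of all genes. The model's standard error of the mean was 0.24 for each member, since its variance was pooled over all genes. The members' own SD over the 4 arrays, a different measure, had a median of 0.27. In simulated data the fit called only 2.99% of log2 changes of 0.5, a size above the members' median of 0.34. That simulation favours the method, and it drew the 4 arrays as independent of each other. The 0 calls therefore do not show that the genes did not change. The error rests on 2 cultures, whose arrays are not told apart in the labels. With arrays 1 and 4 taken as 1 culture and arrays 2 and 3 as the other, limma called 37 of 53 members, against 15.0% of all genes on the TIP1 side. With arrays 1 and 2 as 1 culture it called 0, and the main test keeps the larger p of both. Arrays 1 and 4, and likewise 2 and 3, deviated in opposite directions (consensus correlation -0.67, against 0.12 in the other pairing), which makes culture means alike.

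On single arrays the side was nearly as uniform. On array 1 the members had a median of 0.16, and 46 of 53 were on the TIP1 side. The median was 0.29 on array 2 (52 of 53), 0.34 on array 3 (48 of 53) and 0.62 on array 4 (52 of 53). All genes had medians of 0.02, 0.05, 0.10 and 0.03 on arrays 1 to 4, so the members were beyond them by 0.14, 0.24, 0.24 and 0.60. Array 4 gave the largest size for 36 members and array 1 the smallest for 28. The arrays also differed in spread, with an SD over all genes of 0.36, 0.46, 0.65 and 0.61 on arrays 1 to 4. The share of all genes that were largest on array 4 or smallest on array 1 was not taken. On all 4 arrays 39 members kept the TIP1 side, against 18.5% of all genes. Counted from each array's own median, 37 members lay further toward the TIP1 side on all 4 arrays, against 13.9% of all genes.

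**Figure D1:**
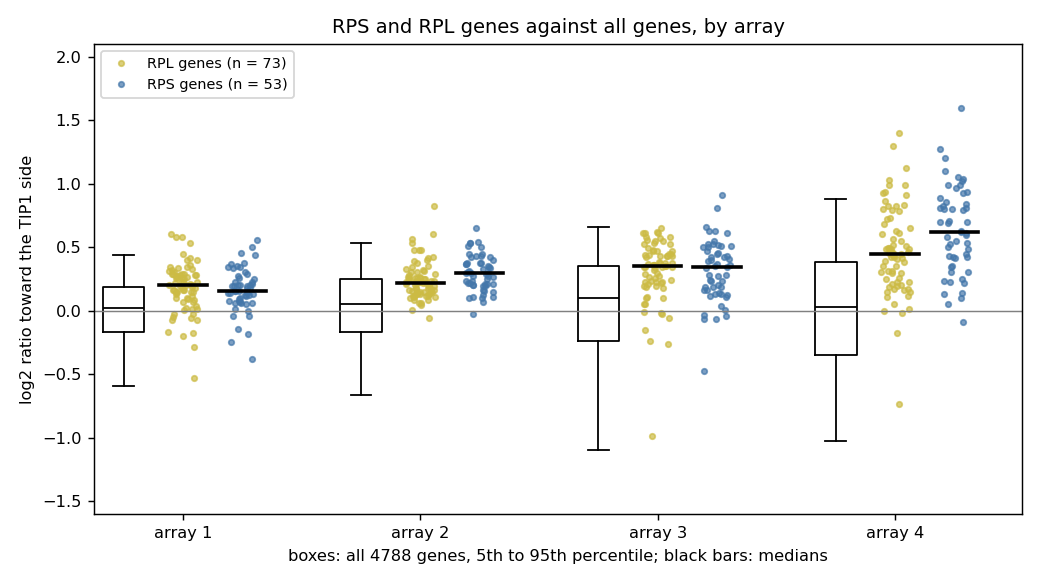
Log2 ratio toward the TIP1 side on each array (vertical axis) for all 4788 genes (boxes from the 25th to the 75th percentile, whiskers from the 5th to the 95th), 73 RPL genes and 53 RPS genes (points, black bars at their medians). The RPS medians are 0.16, 0.29, 0.34 and 0.62 on arrays 1 to 4, each above the median of all genes, and the points spread most on array 4.

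The 10 largest means among members that kept the side on all 4 arrays came from body and head alike. RPS21A (YKR057W) and RPS21B (YJL136C) encode a small protein that sits beside Rps0 on the solvent face of the body. RPS21A had 0.37, 0.54, 0.80 and 0.69 on arrays 1 to 4, a mean of 0.60 ± 0.19 (SD, n = 4). RPS21B had 0.34, 0.10, 0.50 and 1.03, a mean of 0.49 ± 0.40 (adjusted p = 0.393, limma). RPS21A was thus of a like size on every array, while RPS21B owed its mean largely to array 4.

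RPS28A (YOR167C) and RPS28B (YLR264W) encode a head protein at the mRNA exit, and RPS28B is known in yeast for a transcript that its own protein helps to degrade. RPS28A had 0.30, 0.10, 0.50 and 0.92, a mean of 0.46 ± 0.35. RPS28B had 0.23, 0.31, 0.53 and 0.99, a mean of 0.51 ± 0.34. RPS29B (YDL061C), encoding a zinc-binding head protein, had 0.20, 0.15, 0.62 and 1.27, a mean of 0.56 ± 0.52. In all 3 genes array 4 was the highest and arrays 1 and 2 were the lowest.

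RPS31 (YLR167W) encodes a beak protein made as a fusion with ubiquitin, so its transcript also supplies ubiquitin. It had 0.27, 0.23, 0.51 and 1.02 on arrays 1 to 4, a mean of 0.51 ± 0.36 (adjusted p = 0.362, limma). RPS30B (YOR182C), encoding a small basic protein near the mRNA entry, had 0.06, 0.20, 0.66 and 1.20, a mean of 0.53 ± 0.52. RPS16A (YMR143W) encodes a head protein whose tail reaches the transfer RNA in the P site, and it had 0.15, 0.32, 0.40 and 0.81, a mean of 0.42 ± 0.28. These 3 likewise had their highest value on array 4.

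RPS22A (YJL190C) encodes a body protein bound to the central domain of the rRNA, and RPS14B (YJL191W) a platform protein. RPS22A had 0.56, 0.15, 0.61 and 0.81, a mean of 0.53 ± 0.28. RPS14B had 0.37, 0.10, 0.63 and 0.61, a mean of 0.43 ± 0.25. In both, array 2 was the lowest. RPS14B and RPS22A are neighbours on their chromosome, and the next gene after RPS22A is the large subunit gene RPL39 (0.53).

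**Figure D2:**
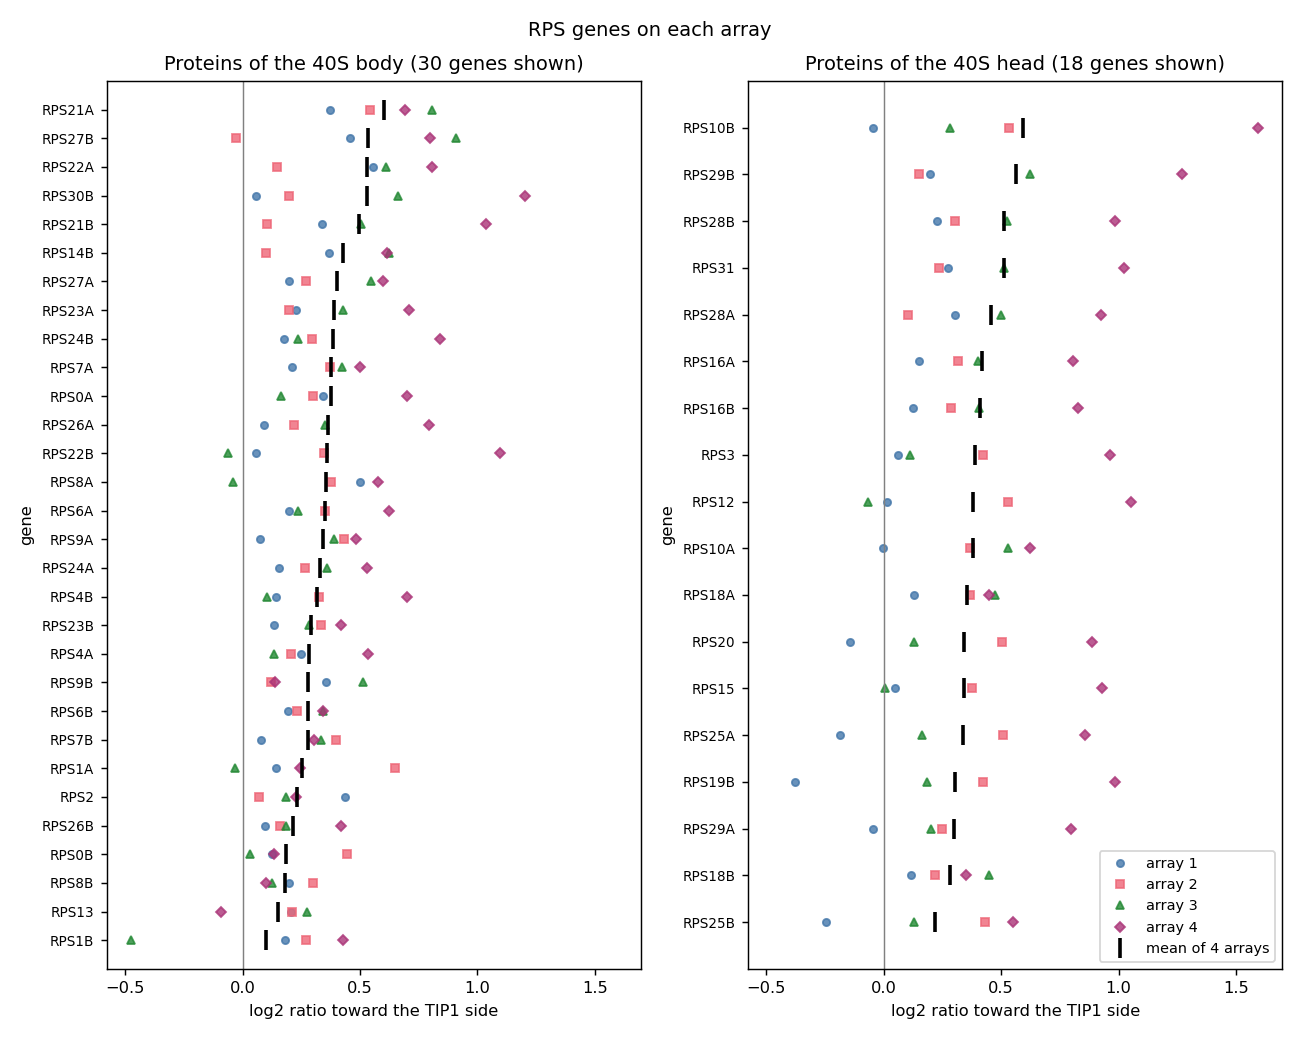
Log2 ratio toward the TIP1 side (horizontal axis) for 48 RPS genes on arrays 1 to 4 (points), with the mean of the 4 arrays (black bar), split into 30 genes for proteins of the body and 18 for proteins of the head. Every mean lies right of 0, array 4 is most often the rightmost point, and the 7 points of array 1 left of 0 all belong to the head.

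Among the other body and platform proteins, sizes were mostly moderate. The 32 measured body genes had means from 0.10 to 0.60 with a median of 0.34. RPS2 (YGL123W), at the mRNA entry, had a mean of 0.23 ± 0.15, and RPS13 (YDR064W), a platform protein gene, 0.15 ± 0.16, with -0.09 on array 4. RPS1B (YML063W), encoding a platform protein at the mRNA exit, had the smallest mean of all, with 0.18, 0.27, -0.47 and 0.43 on arrays 1 to 4. RPS27B (YHR021C), for a zinc-binding platform protein, had a mean of 0.53 but -0.03 on array 2. RPS1B and RPS27B, and the members named below for a value on the HSP12 side, were singled out after their values were seen.

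Other duplicated body genes had moderate means in both copies, from 0.21 to 0.39. RPS6, whose protein is phosphorylated downstream of TOR, had 0.35 ± 0.19 for RPS6A (YPL090C) and 0.28 ± 0.08 for RPS6B (YBR181C). RPS23, whose protein reaches into the decoding centre, had 0.39 ± 0.24 for RPS23A (YGR118W) and 0.29 ± 0.12 for RPS23B (YPR132W). RPS26, whose protein contacts the mRNA at the exit, had 0.36 ± 0.31 for RPS26A (YGL189C) and 0.21 ± 0.14 for RPS26B (YER131W). RPS9, whose protein lies at the mRNA entry, had 0.34 ± 0.18 for RPS9A (YPL081W) and 0.28 ± 0.19 for RPS9B (YBR189W). The copies of RPS4, RPS7 and RPS24 had means of 0.28 and 0.32, 0.38 and 0.28, and 0.33 and 0.39, A first. All of these kept the TIP1 side on all 4 arrays.

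The 21 measured head genes had means from 0.21 to 0.59 with a median of 0.35. RPS3 (YNL178W), at the mRNA entry, had 0.39 ± 0.41 and RPS15 (YOL040C), near the decoding site, 0.34 ± 0.43. RPS12 (YOR369C), a beak protein gene, had 0.38 ± 0.52 and RPS20 (YHL015W) 0.34 ± 0.45. Their large SDs came with values of 0.89 to 1.05 on array 4 and low values on arrays 1 and 3. On array 1 they had 0.06 (RPS3), 0.01 (RPS12), 0.05 (RPS15) and -0.15 (RPS20). On array 3 RPS3, RPS12 and RPS15 had at most 0.11 and RPS20 had 0.13. The 8 members with a single gene, among them these 4 and RPS2, RPS13 and RPS31, had a median size of 0.34, close to that of the 45 measured duplicated members (0.35).

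Head and body differed in how they behaved across arrays rather than in their means. The median of the head genes minus that of the body genes was -0.13 on array 1, 0.10 on array 2, 0.06 on array 3 and 0.33 on array 4, so the sign of the difference was not the same throughout. All 7 members on the HSP12 side on array 1 encode head proteins, RPS19B (0.38 toward HSP12), RPS25B (0.24), RPS25A (0.19), RPS20 (0.15), RPS10B (0.05), RPS29A (0.04) and RPS10A (0.002), while 0 of 32 body genes lay there. On array 4 the same 7 had sizes from 0.55 to 1.59 toward TIP1. The head genes were shorter, with a median span of 678 bases against 814, and what part length or dye had in this was not tested.

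The order of the members among themselves went in part with the dyes. Over all genes, every pair of arrays correlated above 0 after turning (r from 0.29 to 0.60). Over the 53 RPS genes, arrays of opposite dye orientation correlated below 0 for arrays 1 and 2 (r = -0.58), 2 and 3 (r = -0.44) and 1 and 4 (r = -0.26), and arrays 3 and 4 had 0.11. Arrays of the same orientation had 0.36 (arrays 1 and 3) and 0.15 (arrays 2 and 4). These are descriptions across genes that share the same 4 hybridisations, and genes are not independent replicates. Except between arrays 3 and 4, a member far out with treated RNA in Cy5 thus tended to be less far out with treated RNA in Cy3. Arrays 2 and 4 (r = 0.15) were hardly more alike than arrays 3 and 4 (r = 0.11).

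The same shows in the split of the variance over genes. For all genes the mean of the 4 arrays held 57.8% of it and the contrast of both dye orientations 15.0%. For the RPS genes these shares were 22.2% and 37.7%, and for the RPL genes, which encode the large subunit, 28.2% and 39.8%. Setting the first 2 arrays against the last 2 gave another contrast, which held 21.0% for all genes and 25.6% for the RPS genes. The median size of the RPS genes was 0.24 over arrays 1 and 3 and 0.48 over arrays 2 and 4, and 43 of 53 members were larger on arrays 2 and 4, against 49.9% of all genes. RPS10B, RPS12, RPS19B and RPS22B, named after their values were seen, differed most. RPS12 had a mean of -0.03 over arrays 1 and 3 and 0.79 over arrays 2 and 4, and RPS19B -0.10 and 0.70. Among the RPS genes both contrasts thus held more of the variance than the mean that ranks them, the dye contrast the most, while the group median lay on the TIP1 side in both orientations.

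**Figure D3:**
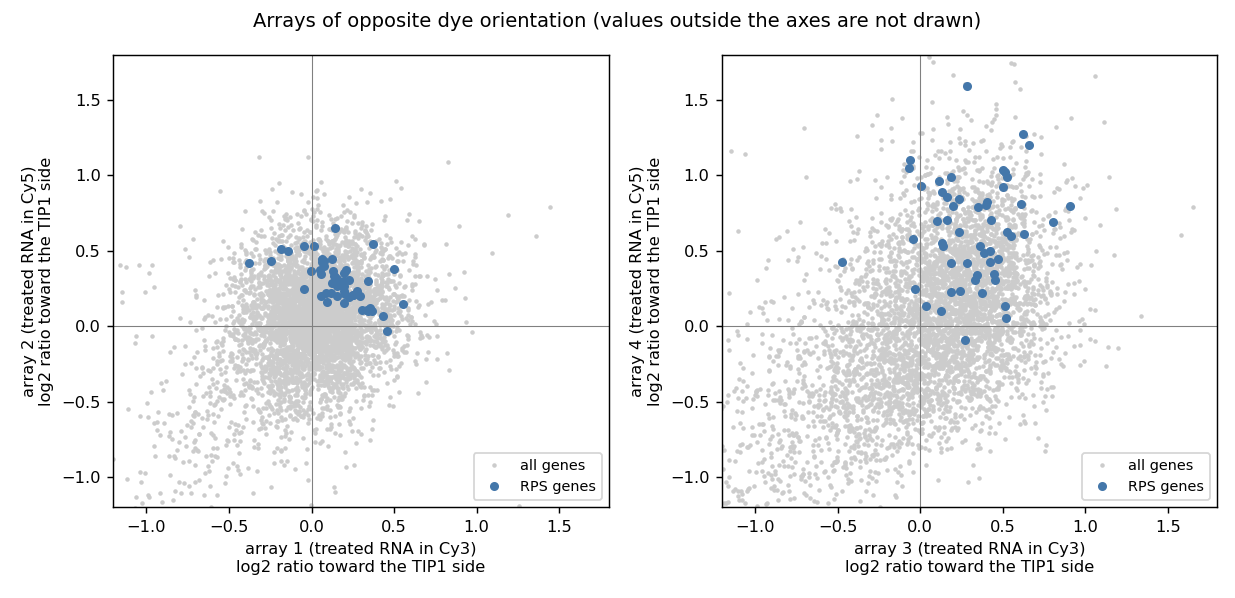
Log2 ratio toward the TIP1 side on array 1 against array 2 (left) and array 3 against array 4 (right), with treated RNA in Cy3 on the horizontal and in Cy5 on the vertical axis, for all genes (grey) and 53 RPS genes (blue). The RPS points lie mostly above 0 on both axes of both panels, and on the left they slope downward (r = -0.58) where all genes slope upward (r = 0.54).

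Short genes lay further toward the TIP1 side on arrays 3 and 4, and RPS genes are short. Their median span from start to stop was 768 bases, introns included, against 1218 for all genes. Over all genes with a known span, Spearman's rho of size toward TIP1 with span was 0.01, 0.18, -0.45 and -0.40 on arrays 1 to 4. Over the RPS genes it was 0.15, 0.01, -0.09 and -0.43. After a smooth trend with span was taken off each array, the RPS medians were 0.15, 0.35, 0.17 and 0.42 on arrays 1 to 4, and the median of the means 0.27. On all 4 arrays 36 of 53 members kept the TIP1 side, against 19.4% of all genes treated alike. The trend was taken with span and not with coding length, and 24 of 53 RPS spans are no multiple of 3. What this does to the sizes left was not tested.

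**Figure D4:**
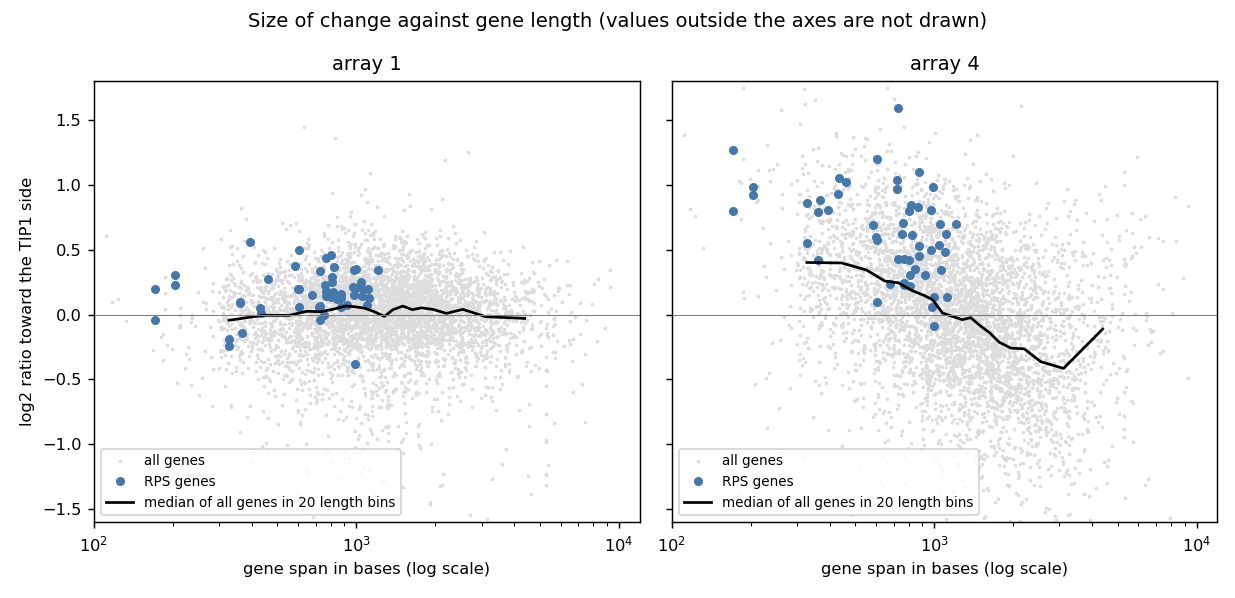
Log2 ratio toward the TIP1 side (vertical axis) against gene span in bases (horizontal log axis) on arrays 1 and 4, for all genes (grey) and RPS genes (blue), with the median of all genes in 20 bins of span (line). The line is flat on array 1 and falls with span on array 4, and most RPS points lie above it in both panels.

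The copies of a duplicated gene differed little in mean size, but so did the members as a whole (SD of the means 0.11). Both copies were measured for 21 pairs, and the mean of A minus B was under 0.1 in size for 11 of them, with a median size of 0.10. In 2 of 21 pairs the difference had 1 sign on all 4 arrays, against 3 of 31 RPL pairs. These were RPS25, which encodes a head protein needed by some viral internal ribosome entry sites (A larger by 0.12 ± 0.13, SD, n = 4), and RPS18 (A larger by 0.07 ± 0.06), both named after their values were seen. The mean difference was larger than its own SD over the arrays in 3 pairs. An exact two-sided sign-flip test over 4 arrays cannot give a p below 0.125, and the pair differences were not tested in another way.

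The largest difference was in RPS29. RPS29A (YLR388W) had -0.04, 0.25, 0.20 and 0.80 on arrays 1 to 4, and RPS29B the values given above. The B copy was further out by 0.26 ± 0.26, on arrays 1, 3 and 4 but not on array 2. RPS10A (YOR293W), for a head protein near the mRNA entry, had -0.002, 0.37, 0.53 and 0.62, and RPS10B (YMR230W) -0.05, 0.53, 0.28 and 1.59. The difference of the RPS10 copies (B larger by 0.21 ± 0.53) rested on array 4, and its sign split 2 arrays against 2.

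In the next 3 pairs the A copy was further out. RPS0A (YGR214W) had 0.34, 0.30, 0.16 and 0.70 and RPS0B (YLR048W) 0.13, 0.44, 0.03 and 0.13, genes for a body protein needed for maturation of the small subunit's rRNA. RPS8A (YBL072C) had 0.50, 0.38, -0.04 and 0.58 and RPS8B (YER102W) 0.20, 0.30, 0.12 and 0.10. RPS22B (YLR367W) had 0.06, 0.35, -0.06 and 1.10, against the values of RPS22A above. The differences were 0.19 ± 0.29, 0.17 ± 0.28 and 0.17 ± 0.49. In RPS22 the sign followed the dyes, with A larger on arrays 1 and 3 and B on arrays 2 and 4.

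The closest pair was RPS16. RPS16A had the values given above and RPS16B (YDL083C) 0.12, 0.29, 0.41 and 0.83, so that the copies differed by at most 0.03 on any array.

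Averaged over arrays, the absolute difference between copies had a median of 0.16, against 0.25 between members that are no copies of each other. Yet the copy was the most similar other member for only 3 of 42 genes, and its median rank among the 52 others was 15.5. Copies of near-identical sequence may share signal on an array. The spot sequences are not known here, and the part of shared signal was not tested.

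**Figure D5:**
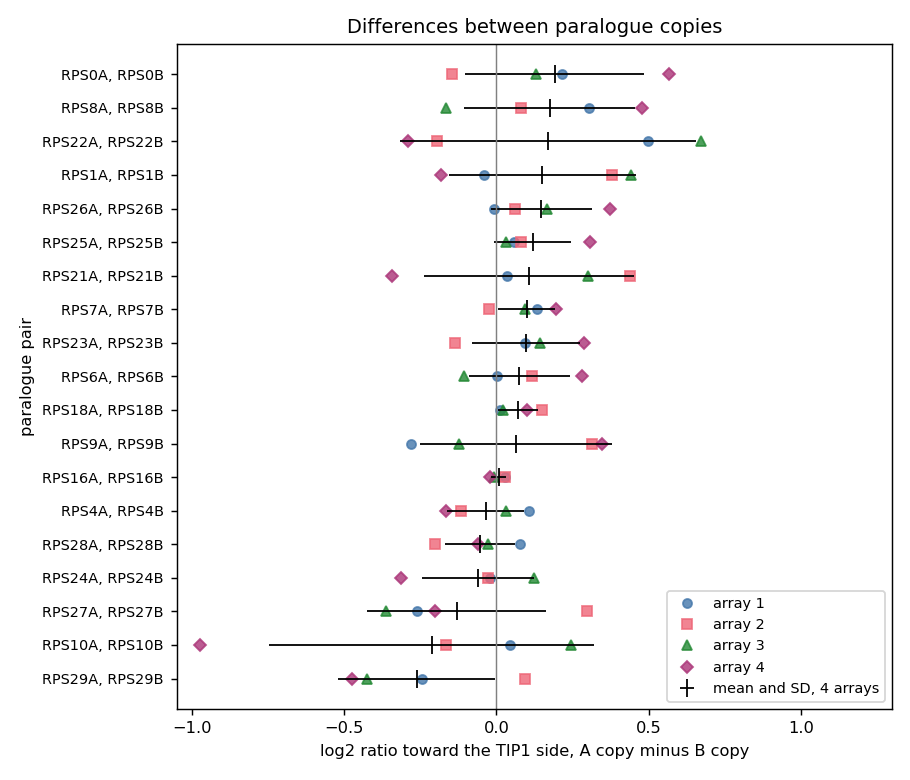
Difference between the A and the B copy (horizontal axis, log2 ratio toward the TIP1 side, A minus B) for 19 RPS pairs on arrays 1 to 4 (points), with the mean and SD over the 4 arrays (bars). The means run from -0.26 (RPS29) to 0.19 (RPS0), the RPS16 points lie within 0.03 of 0, and most SD bars cross 0.

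Several RPS genes sit next to RPL genes in the genome, an arrangement kept in both copies of a duplicated block for RPS16 with RPL13 and for RPS19 with RPL18. RPS16A had 0.42 beside 0.21 for RPL13B, and RPS16B 0.41 beside 0.28 for RPL13A. RPS19B had 0.30 beside 0.28 for RPL18B, and RPS9B 0.28 beside 0.28 for RPL21A. All of them lay on the TIP1 side.

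The RPL genes took the same side by a similar amount. Of 73 measured, 69 lay on the TIP1 side by their mean and 54 on all 4 arrays, against 57.5% and 18.5% of all genes. In limma 0 were called on either side, against 0.209% of all genes on the TIP1 side and 4.34% on the HSP12 side. At an unadjusted p under 0.05 there were 3 RPL genes on the TIP1 side, against 2.97% of all genes. Their median was 0.30, and the RPS median exceeded it by 0.05 over the mean of the arrays. That excess was -0.04, 0.07, -0.01 and 0.18 on arrays 1 to 4, and -0.01 in the means without array 4, so it has no common sign. RPL19B (0.54 ± 0.22), RPL39 (0.53 ± 0.54) and RPL19A (0.48 ± 0.36) were the furthest out that kept the side on all arrays. The 5 genes of the ribosomal stalk, which recruits translation factors to the large subunit, all lay there by their mean, 3 of them on all 4 arrays, with 0 called (0 at an unadjusted p under 0.05). Those 3 were RPP1B at 0.31 ± 0.12, RPP2B at 0.27 ± 0.08 and RPP0 at 0.25 ± 0.07.

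Genes that help to build the small subunit also lay on the TIP1 side. Of 38 measured assembly factors 38 did so, 19 of them on all 4 arrays, against 57.5% and 18.5% of all genes, with a median of 0.27. In limma 0 were called on either side (0.209% of all genes on the TIP1 side), and 5 had an unadjusted p under 0.05 (2.97% of all genes). KRR1, a factor of the early processome, had 0.63 ± 0.49 (adjusted p = 0.163, limma). NOP1, the methyltransferase of box C/D particles, had 0.62 ± 0.08 and DIM1, an rRNA dimethylase, 0.56 ± 0.27. Among 6 listed chaperones of ribosomal proteins, 5 lay on the TIP1 side with a median of 0.32 over all 6. In limma 0 were called, and 1 had an unadjusted p under 0.05 (2.97% of all genes on the TIP1 side). The list includes ACL4 (0.29 ± 0.29), whose protein serves the large subunit protein Rpl4. TSR2, the chaperone of Rps26, had 0.56 ± 0.25, beside RPS26A at 0.36 and RPS26B at 0.21, and TSR4, the chaperone of Rps2, had 0.32 ± 0.23.

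Initiation factors were closer to all genes in their median. Of 14 initiation factors that bind the small subunit, 12 lay on the TIP1 side, 2 of them on all 4 arrays, against 57.5% and 18.5% of all genes. Their median was 0.19. In limma 0 were called (0.209% of all genes on the TIP1 side), and 0 had an unadjusted p under 0.05 (2.97% of all genes). RLI1, which recycles ribosomes, had 0.37 ± 0.12, and SUI2, a subunit of the factor that brings the initiator transfer RNA, 0.26 ± 0.29. ASC1, which encodes a scaffold protein of the head outside the RPS names, had 0.58, 0.12, 0.90 and 0.02 on arrays 1 to 4, a mean of 0.41 ± 0.41. In ASC1 the values were higher with treated RNA in Cy3, the reverse of most RPS genes. STM1, a protein that binds idle ribosomes, had 0.29 ± 0.10. The list of 5 such partners had a median of 0.29, with 5 on the TIP1 side (57.5% of all genes) and 0 called (0 at an unadjusted p under 0.05).

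The transcription factors and signalling genes that control RPS transcription were split between the sides, near the share of all genes. Of 19 measured, 10 lay on the TIP1 side and 9 on the HSP12 side, against 57.5% of all genes on the TIP1 side. Their median was 0.10. In limma 0 were called, against 0.209% of all genes on the TIP1 side and 4.34% on the HSP12 side. At an unadjusted p under 0.05 there was 1, TOR1, on the HSP12 side. The share of all genes on that side at this threshold was not taken. TOR1, a kinase of the nutrient pathway, lay on the HSP12 side on all 4 arrays, by 0.83, 0.87, 0.56 and 0.28 (mean 0.64 ± 0.27; adjusted p = 0.150, limma). RRP7, a partner in a complex that links ribosome assembly to RPS transcription, had 0.45 ± 0.39 on the TIP1 side, and KOG1, a subunit of the TOR complex, 0.22 ± 0.15. Of the transcription factors named above, RAP1 had -0.06 ± 0.33, IFH1 -0.01 ± 0.58 and FHL1 0.26 ± 0.44, each with arrays on both sides. The 33 measured genes of the mitochondrial small subunit, whose proteins translate the mitochondrial genome, had a median of 0.13, with 26 on the TIP1 side, against 57.5% of all genes. On all 4 arrays 4 of them kept that side, a smaller share than the 18.5% of all genes, and 0 were called in limma (0 at an unadjusted p under 0.05). RSM26 had 0.38 ± 0.17, RSM27 0.34 ± 0.36 and MRP1 0.30 ± 0.19.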

How the data were processed

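RNA of zymolyase-treated and untreated parts of slt2 mutant cultures was compared on 4 two-colour arrays, taken as 1 group and numbered as in their titles. The deposited values are log ratios of both dyes, read as log2; the authors' base, numerator, background correction, normalization and centring are not stated in the sources. The medians of the turned values over tested genes were -0.02, -0.05, -0.10 and -0.03 on arrays 1 to 4 (toward HSP12), and no centring was added. Signal over background is unknown, and the number of arrays limits precision.

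Of 6209 rows 2 control spots were left out. Rows were named through RefSeq R64 locus tags or an unambiguous synonym (5677 of 6207). The 4788 genes with a value on all 4 arrays were fitted with limma (version 3.58.1, R 4.3.3, lmFit and eBayes) on 2 culture means, for both pairings of arrays that keep a dye swap within a culture, and the larger p was adjusted by the Benjamini-Hochberg method over all genes. For arrays 1 with 2 the prior degrees of freedom were infinite, so every gene had the same variance in that pairing. The fit was tested on simulated data whose spreads were drawn from limma's own fitted prior, which favours the method; a first simulation with spreads taken from the genes' own SDs recovered fewer of the largest changes and was replaced. A p-value from arrays 1 with 2 depends only on the size of a gene's mean, set against a spread pooled over all genes. The p-values of the RPS members come from that pairing. Where the other pairing gave the larger p, a gene's own spread between presumed cultures also enters.

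Named genes followed a rule: the 10 members with the largest mean that kept 1 side on all arrays, the 5 pairs with the largest and the 3 with the smallest difference, the single-copy members, and up to 3 genes of each other list. Some of the members and pairs it selects are not reported here by name, and stay in the counts and medians. Members, lists and rules were chosen with earlier results of these data known. Alternatives covered pairing, culture block, dye term, centring, scaling, missing values, variance moderation, gene length (lowess on log2 span) and leaving out each array.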

Additional observations from a re-analysis of the deposited data

How the results depend on the processing

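The count of 0 called RPS members held with arrays 1 and 2 as 1 culture, a random culture block, a dye term, centring, scaling, genes with at least 3 values, robust moderation, the length trend removed and each array left out. The dye term and the fits with an array left out took single arrays as replicates, without culture means. The count was 37 with arrays 1 and 4 as 1 culture alone, where 1415 of all 4788 genes were called on either side. It was 1 (RPS21A) with the 4 arrays as separate replicates, where 191 of all 4788 genes were called. The choice of pairing, separate replicates, culture block, dye term, variance moderation and missing values leaves the members' means unchanged. With centring, scaling or the length trend removed, all 53 members still had a mean on the TIP1 side. The same held with array 1, 2 or 3 left out, and without array 4 it was 52. The median size was 0.29 after centring, 0.33 after scaling, 0.27 without the length trend, 0.26 to 0.43 with an array left out, 0.23 on arrays 1 and 2 and 0.46 on arrays 3 and 4. Beyond the median of all genes it was 0.20 to 0.38 over these settings. The excess over the RPL median ran from -0.01 to 0.09. The count of pairs with 1 sign was 2 after scaling and 3 without the length trend. Each array already holds both parts of a culture, so testing its ratio against 0 is a paired comparison. The arrays form 1 group, and no further pairing was added.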
